A study of Homo sapiens with 12 samples.

Results

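The 10 genes METTL1, WDR4, QKI, METTL3, METTL14, WTAP, VIRMA, YTHDF1, YTHDF2 and YTHDC1, which write or read the RNA methylations m6A and m7G, were followed in HepG2 cells, a human liver cancer line, after siRNA knockdown of IGF2BP3. They were taken by gene symbol from the 58721 genes of the deposited tables. In that order they comprise 3 m7G factors, 4 m6A writers and 3 m6A readers. All 10 passed the filters on low counts in every comparison. Cells were transfected with siControl, a non-targeting siRNA, or with siIGF2BP3, and were exposed to 100 µg/mL cycloheximide, which stalls ribosomes, for 4 min before lysis. Both conditions share this drug and the transfection, the knockdown is transient, and all cells are of 1 line. Each condition gave 3 Input libraries, which report RNA abundance, and 3 RPF libraries of ribosome-protected fragments of 28 to 30 nt, for 12 libraries in 4 groups.

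As background, m6A is laid down in the nucleus by a complex in which METTL3 transfers the methyl group, METTL14 helps to hold the RNA and WTAP and VIRMA form part of the scaffold. YTH domain proteins then bind the mark. YTHDF1 and YTHDF2 do so in the cytoplasm, where they have been linked to translation and to mRNA decay, and YTHDC1 does so in the nucleus. METTL1 with its partner WDR4 methylates guanosine at N7 in tRNA and at internal sites of some mRNAs, and QKI, a KH domain protein known for its role in splicing, also binds internal m7G. IGF2BP3 belongs to the IGF2BP family, whose proteins bind m6A-marked transcripts, and the study asked how it acts on transcripts with internal m7G. The comparisons here show whether the transcripts of the writers and readers themselves differed after the knockdown, in RNA level, in footprints or in their ratio.

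The catalytic difference within the m6A writer pair can be read in the coding sequence, and METTL3 is the gene on which most of the results below turn. In METTL3 the codons in capitals spell Asp-Pro-Pro-Trp, the catalytic motif, at residues 395 to 398 of 580 (hg38 chr14:21500596-21500625, minus strand, exon of the coding sequence). In METTL14 the codons in capitals, at residues 192 to 195 of 456, spell Glu-Pro-Pro-Leu (hg38 chr4:118697243-118697272, plus strand, coding exon), and METTL14 does not transfer methyl groups. Both windows are reference sequence, 30 bases long, written 5′ to 3′ on the coding strand, from GENCODE release 44 transcripts.
METTL3: gtgatggctGACCCACCCTGGgatattcac
METTL14: attcttctgGAACCCCCTTTAgaagaatat

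Total counts per library were between 11219750 and 31510601, and the lowest count of any of the 10 genes in a library was 49. Levels are given as CPM, counts scaled to a total of 1000000 per library. siControl RPF replicates 2 and 3 differed by less than the sampling noise over all genes (mean chi-square per gene 0.941, where counting noise gives about 1) and by slightly more over protein-coding genes (1.06), against 1.58 to 2.80 for the pairs with replicate 1. They were counted as 1 sample in means and SDs, so that siControl RPF has n = 2. The labels list them as separate replicates, and whether they are 1 sample is not known. The RPF and TE fits kept them as separate libraries. If they are 1 sample, the p-values of those fits use 1 library too many. Values with both libraries summed are given where they change a call. siIGF2BP3 RPF replicate 1 stood apart from its group: the chi-square per gene averaged 19.9 and 21.5 against replicates 2 and 3, which differed by 1.15 from each other. For single genes, RPF and TE values that it moved by more than 1.5 times are also given without it. In those fits siIGF2BP3 RPF is replicates 2 and 3 only, which differ by little more than counting noise. The p-values without replicate 1 may therefore be too small. The labels do not say that replicates came from separate cultures, so p-values measure only the spread between these libraries, which may be technical. The 8 hepatic markers examined (ALB, AFP, APOA2, TTR, SERPINA1, FGB, TF and HNF4A) were at 94.1 CPM or more in every library. Their summed level in Input ranged from 34721 to 36088 CPM in siControl and from 30825 to 31788 CPM in siIGF2BP3. In RNA 4 of the 8 (ALB, AFP, SERPINA1 and TF) fell at an adjusted p under 0.05 (edgeR), beside 281 of all 14759 genes tested. In RPF the sum ranged from 45171 to 46660 CPM in siControl and from 40845 to 44017 CPM in siIGF2BP3. There 0 of the 8 were called (edgeR), beside 1.66% of all genes tested. Of 5 markers of other cell types (PTPRC, COL1A1, PECAM1, CD68 and KRT5), the summed level was between 21.7 and 33.1 CPM over all libraries. CD68 made up most of this, at 19.7 to 27.9 CPM, and PECAM1 reached 4.97 CPM in siControl RPF, while PTPRC was at 0 in every Input library. The part of the hepatic marker difference in the results below was not tested. In bulk cultures, fewer cells of a kind and less RNA per cell cannot be told apart.

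IGF2BP3 itself, the targeted gene, was lower in siIGF2BP3 in both assays, without overlap between the groups. Its Input level was 133, 129 and 127 CPM in siControl and 103, 97.9 and 105 CPM in siIGF2BP3. Its RPF level was 74.6, 78.1 and 77.7 CPM in siControl and 21.9, 28.0 and 25.2 CPM in siIGF2BP3.

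Of the 10 genes, METTL3 alone passed the test in RNA, where it rose, and it alone passed the test in translational efficiency (TE, the RPF/Input ratio), where it fell. No gene of the 10 passed in RPF by edgeR. The tests were edgeR quasi-likelihood tests of siIGF2BP3 against siControl over the whole table, with a Benjamini-Hochberg adjusted p under 0.05 as the threshold for a call, and the TE test was the interaction of assay and knockdown. The 1 of 10 in RNA stands beside 5.96% of the 14759 genes tested, the 0 of 10 in RPF beside 1.66% of 20192, and the 1 of 10 in TE beside 2.21% of 13395. DESeq2 also called 1 of the 10 in RNA and in TE, METTL3, beside 4.86% and 2.93% of all genes, and called 1 in RPF, QKI, beside 3.3%. At an unadjusted p under 0.05, the 10 genes held 3 (RNA), 2 (RPF) and 2 (TE), and all genes tested held 3017, 3251 and 2120. The 10 genes had a median log2 fold change of 0.05 (RNA), -0.06 (RPF) and -0.10 (TE), beside 0.0023, 0.0086 and 0.0036 over all genes tested. No result about the 10 genes as a group is read from counts of 0 or 1.

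**Figure D1:**
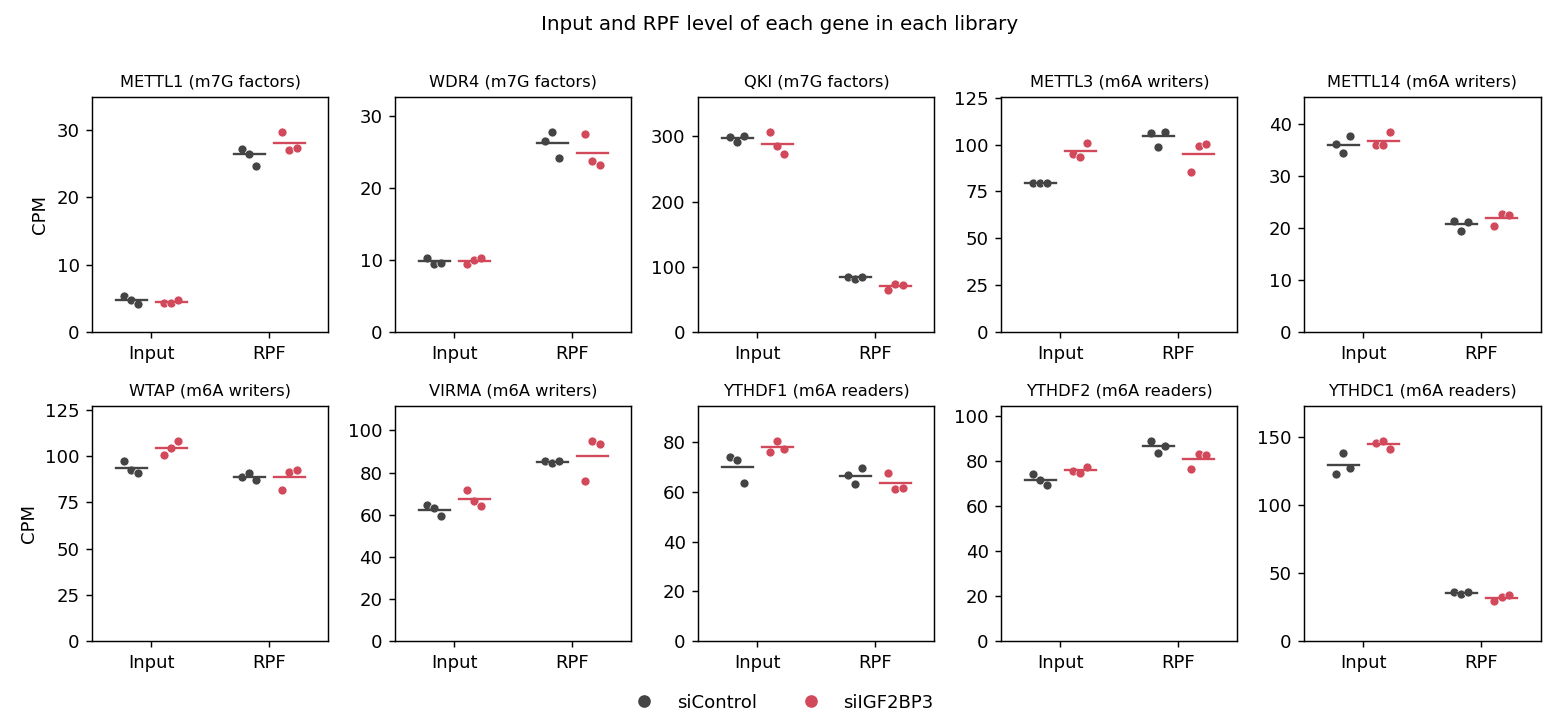
Level in CPM (linear axis from 0, own scale per gene) of each of the 10 genes in the 12 libraries, siControl in dark grey and siIGF2BP3 in red, 1 point per library. Bars are means, with siControl RPF replicates 2 and 3 counted as 1 sample. The 3 METTL3 Input points of siIGF2BP3, 93.5 to 101 CPM, lie above the 3 of siControl, 79.3 to 79.7 CPM, while the METTL3 RPF points overlap.

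METTL3 (ENSG00000165819, hg38 chromosome 14, 21498133 to 21511375, minus strand) encodes the catalytic subunit of the m6A writer. Its Input level was 79.7, 79.3 and 79.7 CPM in siControl and 95.0, 93.5 and 101 CPM in siIGF2BP3. All 3 siIGF2BP3 libraries were above all 3 siControl libraries. These averaged 79.5 ± 0.25 CPM without and 96.5 ± 3.85 CPM with the knockdown (SD, n = 3 each). The log2 fold change was 0.23 ± 0.05 (SE), a fold of 1.17 after TMM scaling (adjusted p = 0.00753, edgeR). The call held in 12 of 13 alternatives and was lost without siIGF2BP3 Input replicate 3, at 0.20 (adjusted p = 0.0594, edgeR).

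The footprints of METTL3 did not pass the test. In RPF, METTL3 measured 106, 98.7 and 107 CPM in the siControl libraries, against 85.6, 99.4 and 100.4 CPM after knockdown. The lowest value was that of siIGF2BP3 RPF replicate 1, and the groups overlapped. The RPF mean was 104.4 ± 2.43 CPM (SD, n = 2) in siControl and 95.1 ± 8.3 CPM (SD, n = 3) in siIGF2BP3, a fitted log2 difference of -0.11 ± 0.06 (SE, adjusted p = 0.431, edgeR). Without siIGF2BP3 RPF replicate 1 the value was -0.06 (adjusted p = 0.311, edgeR).

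The RPF/Input ratio of METTL3 went from 1.31 RPF CPM per Input CPM in siControl to 0.984 in siIGF2BP3, or 1.04 without siIGF2BP3 RPF replicate 1. On the log2 scale the TE change was -0.34 ± 0.08 (SE, adjusted p = 0.0332, edgeR interaction term), a fold of 0.792. This value uses the same Input libraries as the RNA comparison, so the TE fall and the RNA rise of METTL3 are not independent. The sign was negative in all 24 alternatives, between -0.37 and -0.28, but the call held in 9 of them. The test counts siControl RPF replicates 2 and 3 as separate samples. With both summed the call was lost (-0.34, adjusted p = 0.069, edgeR). It was also lost with a block joining Input and RPF libraries of a condition by replicate number (adjusted p = 0.0881, edgeR). The labels do not state that pairing. The call held without siIGF2BP3 RPF replicate 1 (-0.28, adjusted p = 0.00368, edgeR) and without siIGF2BP3 RPF replicate 3 (-0.37, adjusted p = 0.0272, edgeR). It also held with siIGF2BP3 RPF replicate 1 left out and the siControl pair summed (-0.29, adjusted p = 0.00579, edgeR). Without replicate 1, siIGF2BP3 RPF is the close pair of replicates 2 and 3, so those p-values may be too small. The call was lost on leaving out any of the other 10 libraries, with adjusted p from 0.0512 to 0.116 (edgeR).

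METTL3 shares 388 bp, 6.6% of its exon length, with TOX4 on the opposite strand, and whether counting used strand is not given in the sources used here. TOX4 averaged 95.0 ± 2.39 CPM in siControl Input and 96.5 ± 2.54 CPM after knockdown (SD, n = 3 each), and did not pass the test in RNA (log2 fold change -0.03 ± 0.05, SE, adjusted p = 0.824, edgeR). The TOX4 libraries overlapped between the groups, unlike those of METTL3.

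METTL14 (ENSG00000145388, chromosome 4, 118685368 to 118715433, plus strand), the RNA-holding partner of METTL3, passed no test. Its Input level was 36.1, 34.5 and 37.7 CPM in siControl and 35.9, 36.0 and 38.5 CPM in siIGF2BP3. The Input groups overlapped over most of their range (log2 fold change -0.02 ± 0.07, SE, adjusted p = 0.921, edgeR). Its RPF level was 21.3, 19.5 and 21.2 CPM in siControl and 20.3, 22.8 and 22.6 CPM in siIGF2BP3, which also overlapped (0.10 ± 0.06, SE, adjusted p = 0.473, edgeR).

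The ratio of METTL3 to METTL14 was then taken within each library, as log2 of the ratio of their CPM, which removes any scaling of a library. In Input it was 1.14, 1.20 and 1.08 in siControl and 1.40, 1.38 and 1.39 in siIGF2BP3, so the knockdown libraries were higher in 3 of 3. In RPF it was 2.31, 2.34 and 2.33 in siControl and 2.07, 2.13 and 2.15 in siIGF2BP3, where the knockdown libraries were lower in 3 of 3. The difference was 0.25 in Input (two-sided exact permutation p = 0.1, the smallest that 3 against 3 libraries allow). In RPF it was -0.21 (two-sided exact permutation p = 0.2, the smallest that 2 against 3 samples allow). Neither design can reach 0.05, and these ratios restate the METTL3 values above. A ratio between these genes shows unequal change only.

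**Figure D2:**
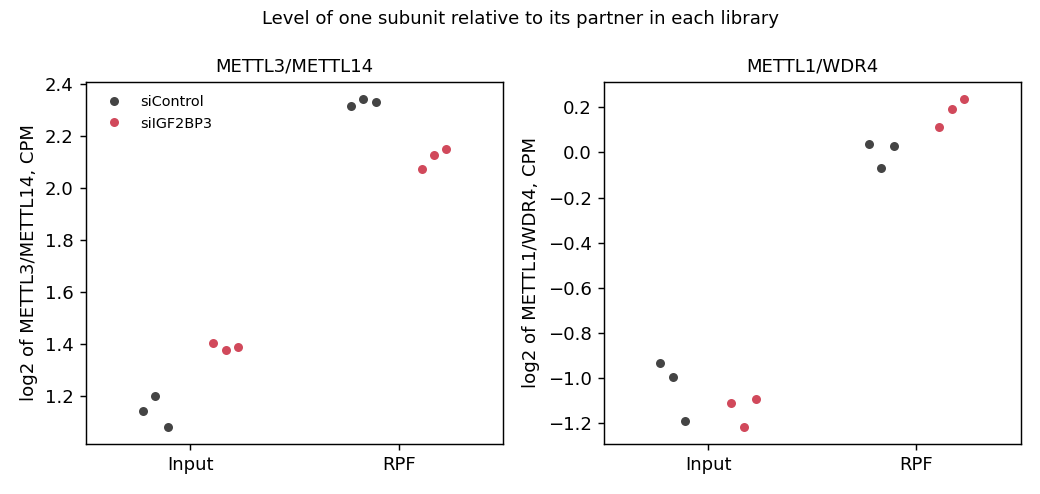
Log2 of the ratio of METTL3 to METTL14 (left) and of METTL1 to WDR4 (right), in CPM, in each library, siControl in dark grey and siIGF2BP3 in red, 1 point per library (the vertical axes do not start at 0). METTL3/METTL14 is higher in siIGF2BP3 in Input, 1.38 to 1.40 against 1.08 to 1.20, and lower in RPF, 2.07 to 2.15 against 2.31 to 2.34.

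The scaffold genes WTAP and VIRMA were not called. WTAP (ENSG00000146457, chromosome 6, 159725585 to 159756319, plus strand), which brings the catalytic pair to nuclear speckles, gave 97.4, 92.7 and 90.8 CPM across the siControl Input libraries, while siIGF2BP3 gave 101, 105 and 108 CPM. The Input groups did not overlap, but the log2 fold change of 0.11 ± 0.05 (SE) had an adjusted p of 0.212 (edgeR). In RPF WTAP measured 88.6, 91.0 and 86.8 CPM in the siControl libraries, against 81.9, 91.5 and 92.6 CPM after knockdown, with full overlap (0.02 ± 0.05, SE, adjusted p = 0.931, edgeR; 0.05 and adjusted p = 0.357 without siIGF2BP3 RPF replicate 1). WTAP shares 298 bp and 139 bp of exon with 2 genes on the opposite strand known here by identifier only (ENSG00000112096 and ENSG00000285441), at 293 and 102 CPM in siControl Input, so its values are uncertain to the extent that reads were split.

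VIRMA (ENSG00000164944, chromosome 8, 94487693 to 94553529, minus strand), the largest of the m6A writer subunits by coding length here (5436 bp), gave 64.5, 63.2 and 59.3 CPM across the siControl Input libraries, while siIGF2BP3 gave 71.7, 66.4 and 64.1 CPM. These overlapped (log2 fold change 0.06 ± 0.06, SE, adjusted p = 0.599, edgeR). The footprints measured 85.4, 84.4 and 85.5 CPM in the siControl libraries, against 75.8, 94.7 and 93.5 CPM after knockdown. Replicate 1 of siIGF2BP3 RPF lay below the siControl values and the other 2 above them, and the test did not pass (0.07 ± 0.07, SE, adjusted p = 0.728, edgeR). Without that library VIRMA rose by 0.14 in RPF (adjusted p = 0.00659, edgeR).

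The 3 m6A readers were each higher in Input and lower in RPF by the sign of the fit, and none passed a test. YTHDC1 (ENSG00000083896, chromosome 4, 68310387 to 68350089, minus strand), the nuclear reader, gave 123, 138 and 127 CPM across the siControl Input libraries, while siIGF2BP3 gave 145, 147 and 141 CPM. Among footprints, it measured 36.1, 34.3 and 36.1 CPM in the siControl libraries, against 29.9, 32.3 and 33.7 CPM after knockdown. The siIGF2BP3 libraries were thus all above siControl in Input and all below it in RPF on the CPM scale. The log2 fold changes were 0.11 ± 0.05 in RNA and -0.13 ± 0.05 in RPF (SE, adjusted p = 0.228 and 0.278, edgeR). The TE change, -0.24 ± 0.08 (SE), did not pass (adjusted p = 0.147, edgeR; 0.0695 to 0.418 over its 24 alternatives).

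YTHDF2 (ENSG00000198492, chromosome 1, 28736621 to 28769775, plus strand), a cytoplasmic reader that recruits the deadenylation machinery, gave 74.2, 71.4 and 69.1 CPM across the siControl Input libraries, while siIGF2BP3 gave 75.4, 74.8 and 77.5 CPM. By RPF it measured 88.6, 83.4 and 86.5 CPM in the siControl libraries, against 76.3, 83.2 and 82.8 CPM after knockdown. The groups were separate in both assays by narrow margins (0.04 ± 0.05 for RNA and -0.08 ± 0.05 for RPF on the log2 scale, SE, adjusted p = 0.758 and 0.471, edgeR). A processed pseudogene, YTHDF2P1 on chromosome 14, had 13.2 to 17.8 CPM in the RPF libraries against 0.12 to 0.388 CPM in Input, and reads shared with it make the YTHDF2 footprint level uncertain.

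YTHDF1 (ENSG00000149658, chromosome 20, 63195429 to 63216234, minus strand), a cytoplasmic reader linked to translation, gave 73.9, 72.6 and 63.6 CPM across the siControl Input libraries, while siIGF2BP3 gave 76.1, 80.2 and 77.0 CPM. The Input groups did not overlap, and replicate 3 of siControl was the lowest. In footprints the gene measured 66.7, 63.0 and 69.5 CPM in the siControl libraries, against 67.6, 61.0 and 61.6 CPM after knockdown. Of the knockdown libraries, replicate 1 lay within the siControl range and the other 2 below it. The log2 fold changes were 0.10 ± 0.06 and -0.05 ± 0.07 (SE, adjusted p = 0.343 and 0.802, edgeR). Without siIGF2BP3 RPF replicate 1 the RPF value was -0.12 (adjusted p = 0.082, edgeR).

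Counted over the 10 genes, the Input groups did not overlap for 5 (METTL3, WTAP, YTHDF1, YTHDF2 and YTHDC1), all with siIGF2BP3 above. Over all genes tested in RNA this held for 25.0%. With TMM factors applied to the CPM, it held for 3 of the 10 (METTL3, WTAP and YTHDF1) and for 24.4% of all genes. In RPF the groups did not overlap for 3 of the 10 (QKI, YTHDF2 and YTHDC1), all with siIGF2BP3 below, beside 25.7% of all genes. With TMM factors METTL1 joined them, with siIGF2BP3 above, beside 26.1% of all genes.

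QKI, the m7G reader, had the largest RPF difference of the 10 genes in the edgeR fit. QKI (ENSG00000112531, chromosome 6, 163414000 to 163578596, plus strand) gave 84.6, 80.7 and 84.9 CPM across the siControl RPF libraries, while siIGF2BP3 gave 64.9, 73.2 and 72.7 CPM. All 3 siIGF2BP3 libraries were below all 3 siControl libraries, and siIGF2BP3 RPF replicate 1 was the lowest. The means were 83.7 ± 1.29 CPM (SD, n = 2) and 70.3 ± 4.64 CPM (SD, n = 3). The log2 fold change was -0.23 ± 0.05 (SE), which missed the threshold (adjusted p = 0.0749, edgeR). It passed with DESeq2, at -0.22 (adjusted p = 0.0241), and without siIGF2BP3 RPF replicate 1, at -0.20 (adjusted p = 0.00208, edgeR). With siControl RPF replicates 2 and 3 summed, the adjusted p was 0.256 with that library and 0.00376 without it (edgeR). The sign was negative in all 15 alternatives, with adjusted p up to 0.327.

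The QKI Input level was 299, 292 and 301 CPM in siControl and 306, 286 and 273 CPM in siIGF2BP3. These overlapped, with both the highest and the lowest value in siIGF2BP3 (log2 fold change -0.09 ± 0.05, SE, adjusted p = 0.282, edgeR). The TE change of -0.14 ± 0.08 (SE) did not pass (adjusted p = 0.404, edgeR).

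The m7G writer genes METTL1 and WDR4 passed no test. METTL1 (ENSG00000037897, chromosome 12, 57768471 to 57772793, minus strand), the catalytic subunit, was the lowest of the 10 in Input, at 5.39, 4.76 and 4.21 CPM in siControl and 4.37, 4.26 and 4.80 CPM in siIGF2BP3, from 49 to 70.5 counts per library. At the RPF level it measured 27.2, 26.4 and 24.7 CPM in the siControl libraries, against 29.7, 27.1 and 27.3 CPM after knockdown. The groups overlapped in both assays on the CPM scale. The log2 fold change was -0.15 ± 0.17 in RNA and 0.11 ± 0.07 in RPF (SE, adjusted p = 0.671 and 0.503, edgeR), and the TE change of 0.26 ± 0.16 (SE, adjusted p = 0.48, edgeR) carries the widest error of the 10 genes. Without siIGF2BP3 RPF replicate 1 the RPF value was 0.05 (adjusted p = 0.587, edgeR). METTL1 shares 506 bp, 19.3% of its exon length, with EEF1AKMT3 of the opposite strand, whose siControl Input level of 5.17 CPM is close to that of METTL1. It also shares 107 bp with CYP27B1 on its own strand, and a processed pseudogene, METTL1P1 on chromosome X, had 2.11 to 2.60 CPM in RPF and 0 in Input.

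WDR4 (ENSG00000160193, chromosome 21, 42843094 to 42879568, minus strand), the partner that METTL1 needs for its activity, gave 10.3, 9.49 and 9.60 CPM across the siControl Input libraries, while siIGF2BP3 gave 9.45, 9.92 and 10.2 CPM. Its footprints measured 26.5, 27.7 and 24.2 CPM in the siControl libraries, against 27.4, 23.7 and 23.2 CPM after knockdown. In RPF, siIGF2BP3 replicate 1 lay within the siControl range and the other 2 libraries below it, and in Input the groups overlapped (-0.03 ± 0.12 for RNA and -0.07 ± 0.10 for RPF on the log2 scale, SE, adjusted p = 0.905 and 0.796, edgeR). The RPF value was -0.16 without siIGF2BP3 RPF replicate 1 (adjusted p = 0.084, edgeR), and it passed when siControl RPF replicates 2 and 3 were also summed (-0.16, adjusted p = 0.0392, edgeR). The within-library log2 ratio of METTL1 to WDR4 was -1.04 ± 0.13 in siControl Input and -1.14 ± 0.07 in siIGF2BP3 Input (SD, n = 3 each), a difference of -0.10 (two-sided exact permutation p = 0.3). In RPF it was 0.01 ± 0.04 (SD, n = 2) and 0.18 ± 0.06 (SD, n = 3), and the groups did not overlap, with a difference of 0.17 (two-sided exact permutation p = 0.2, the smallest that 2 against 3 samples allow).

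**Figure D3:**
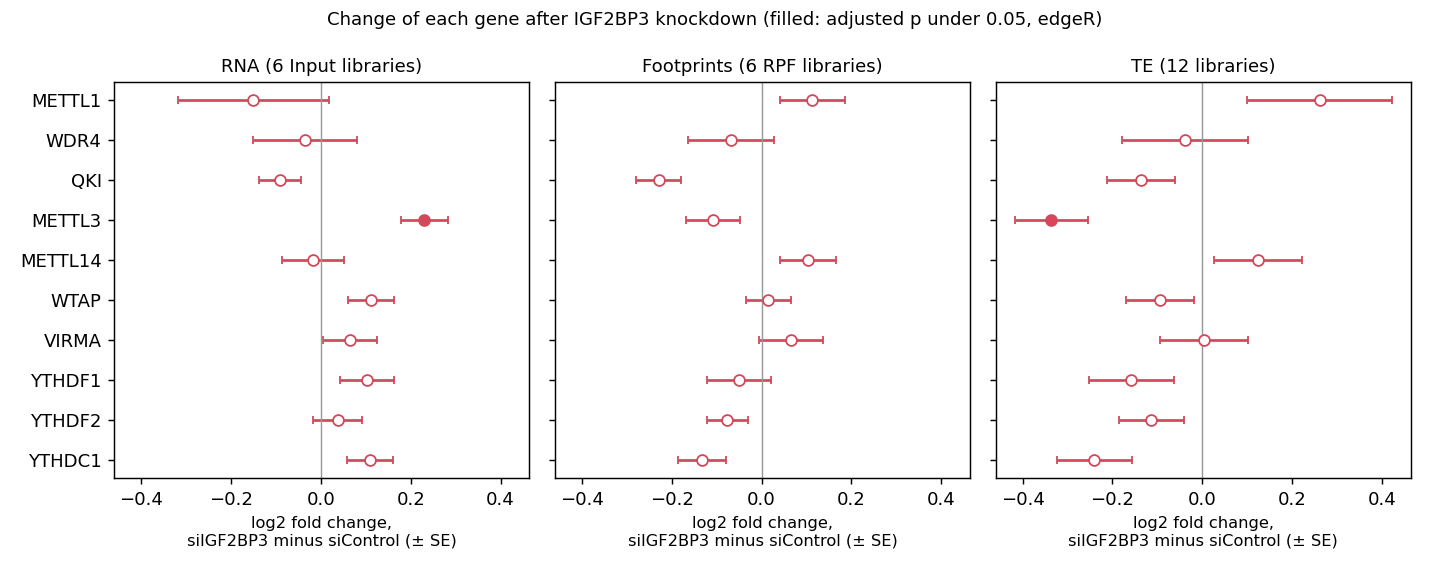
Log2 fold change of siIGF2BP3 against siControl with its SE for the 10 genes, in RNA (6 Input libraries), footprints (6 RPF libraries) and TE (12 libraries), from edgeR. Filled points passed an adjusted p under 0.05. METTL3 is the filled point in RNA, at 0.23, and in TE, at -0.34, and no point is filled in footprints.

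Since siIGF2BP3 RPF replicate 1 stood apart, the RPF and TE fits were repeated without it. In RPF 2 of the 10 genes were then called, QKI, which fell, and VIRMA, which rose, beside 16.5% of all 20615 genes tested. In TE 1 of the 10 was called, METTL3, which fell, beside 9.99% of 13479. The siIGF2BP3 RPF group is then the close pair of replicates 2 and 3, so its spread may be understated. These fits still hold siControl RPF replicates 2 and 3 as separate libraries. With both summed as well, a setting chosen after seeing the data, 3 of the 10 were called in RPF, QKI and WDR4, which fell, and VIRMA, which rose (adjusted p = 0.0165 for VIRMA, edgeR), beside 14.4% of 20898 genes. In TE METTL3 was again the 1 called, beside 7.98% of 13521. With the siControl pair summed and siIGF2BP3 RPF replicate 1 kept, 0 of the 10 were called in RPF or TE. This stands beside only 14 of all 20785 genes tested in RPF and 141 of 13493 in TE. VIRMA in RPF then had an adjusted p of 0.822 (edgeR). The log2 fold change in RPF was below 0 for 6 of the 10 genes both with and without siIGF2BP3 RPF replicate 1. With all libraries kept, this held for 9632 of all 20192 genes tested.

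The 10 genes differed from one another far more than they changed with the knockdown. Levels were set side by side per length, as Input CPM per kb of exon and RPF CPM per kb of coding sequence, in siControl. In Input, YTHDF1 was highest at 21.2 CPM per exon kb, followed by YTHDF2 (18.5), YTHDC1 (18.4), QKI (17.1), WTAP (14.6) and METTL3 (13.5). VIRMA (5.79), METTL14 (5.26), WDR4 (3.58) and METTL1 (1.83) were lower. Of neighbours in this order, the library ranges overlapped only for YTHDF2 and YTHDC1. The catalytic METTL3 was thus above METTL14 per length of exon, and METTL1 below WDR4.

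The order by footprints was another. QKI had the highest RPF level at 81.8 CPM per coding kb, followed by WTAP (74.7), METTL3 (60.0), YTHDF2 (50.0), YTHDF1 (39.6), METTL1 (31.9), WDR4 (21.2), YTHDC1 (16.4), VIRMA (15.7) and METTL14 (15.2). The ranges of VIRMA and METTL14 overlapped, and those of the other neighbours did not. METTL1, last in Input, stood above its partner WDR4 here, and METTL3 above METTL14 as in Input. The coding length is that of a single GENCODE transcript per gene, while RPF reads were counted over all exons. Reads outside that coding sequence raise the level per coding kb. The coding share of exon length was 5.89% in QKI, 18.5% in WTAP and 50.8% in YTHDF1, so the order is uncertain to that extent.

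The RPF/Input ratio in CPM, not per length, spanned the 10 genes from 0.276 for YTHDC1 to 5.53 for METTL1 in siControl. Among the 11785 protein-coding genes tested for TE, whose median was 0.907, METTL1 stood at percentile 97.6 and WDR4 (2.67) at percentile 88.3. VIRMA (1.37), METTL3 (1.31), YTHDF2 (1.21), YTHDF1 (0.951), WTAP (0.948) and METTL14 (0.577) lay between percentiles 31.7 and 67.2. QKI (0.282) and YTHDC1 (0.276) stood at percentiles 12.1 and 11.6, and their library ranges overlapped. The ranges also overlapped between VIRMA and METTL3, METTL3 and YTHDF2, and YTHDF1 and WTAP. In siIGF2BP3 METTL1 (6.26) was still the highest and YTHDC1 (0.221) the lowest, and METTL3 moved from percentile 65.6 to percentile 55.6. Without siIGF2BP3 RPF replicate 1 these were 6.09 for METTL1, 0.229 for YTHDC1 and percentile 57.6 for METTL3. The coding sequence is 5.89% of the exon length of QKI and 31.0% of that of YTHDC1, and reads were counted over all exons in both assays, so exon structure and ribosome occupancy cannot be told apart in this ratio when genes are compared.

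**Figure D4:**
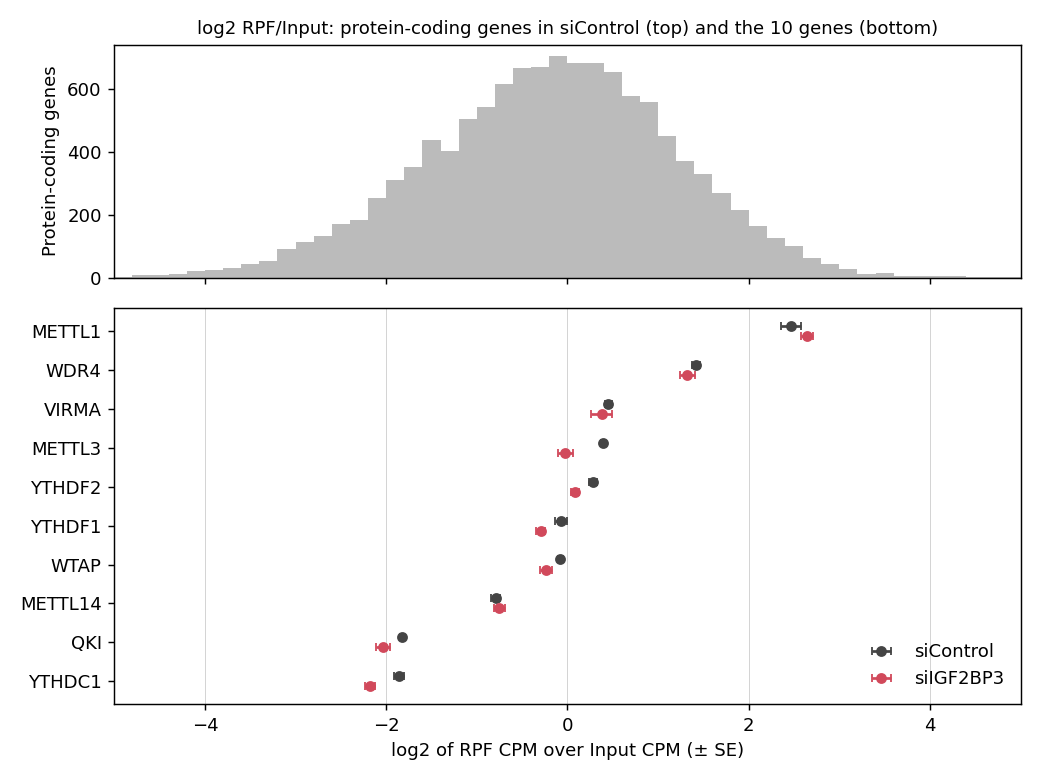
Top, number of protein-coding genes by log2 of RPF CPM over Input CPM in siControl. Bottom, the same log2 ratio for the 10 genes with its SE, siControl in dark grey and siIGF2BP3 in red, ordered by siControl from METTL1 (2.47) to YTHDC1 (-1.86). The distance between the colours is small beside that between the genes, and METTL3 moves from 0.39 to -0.02 (0.05 without siIGF2BP3 RPF replicate 1).

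Other genes of the same pathways were read from a list of 18 further m6A and m6Am factors (writer subunits and other methyltransferases, the demethylases FTO and ALKBH5, and other readers) and a list of 11 further m7G and cap factors (cap methyltransferases, cap-binding proteins and the BUD23 pair). Among the 18, none rose and 1 fell in RNA, HNRNPA2B1, a nuclear RNA-binding protein put forward as an m6A reader, beside 5.96% of all genes tested. Its Input level was 1453, 1549 and 1575 CPM in siControl and 1438, 1414 and 1415 CPM in siIGF2BP3, separate by a narrow margin. It fell by 0.15 ± 0.05 on the log2 scale (SE), with an adjusted p of 0.0494 in edgeR and 0.00754 in DESeq2. The call was lost with a minimum of 5 CPM (adjusted p = 0.0595, edgeR) and on leaving out any Input library but siControl replicate 1, with adjusted p from 0.055 to 0.243 (edgeR).

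None of the 18 was called in RPF or TE (edgeR), beside 1.66% and 2.21% of all genes. There 5 and 2 had an unadjusted p under 0.05, beside 3251 of 20192 and 2120 of 13395 genes tested. DESeq2 called 2 of the 18 in RPF, FMR1, which rose, and HNRNPC, which fell, beside 3.3% of all genes. It called 0 of the 18 in TE, beside 2.93%. For the 18 genes the median stood at -0.03 for RNA, -0.07 for RPF and -0.05 for TE on the log2 scale. The largest RPF and TE difference was that of FMR1, an RNA-binding translational regulator that also binds m6A-marked RNA. FMR1 gave 30.8, 29.7 and 30.5 CPM across the siControl RPF libraries, while siIGF2BP3 gave 33.4, 39.0 and 40.5 CPM, with siIGF2BP3 above in 3 of 3 libraries. The log2 fold change was 0.33 ± 0.06 in RPF and 0.27 ± 0.09 in TE (SE, adjusted p = 0.057 and 0.115, edgeR). Without siIGF2BP3 RPF replicate 1 it was called in both (0.39 and 0.33, adjusted p = 0.000117 and 0.00265, edgeR), and of the 18 then 2 rose and 7 fell in RPF, beside 16.5% of all genes, and 2 rose and 2 fell in TE, beside 9.99%. With siControl RPF replicates 2 and 3 also summed, 1 rose and 7 fell in RPF and 1 rose and 2 fell in TE, beside 14.4% and 7.98%. The medians without that library were -0.05 in RPF and -0.03 in TE.

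None of the 11 m7G and cap factors was called in any comparison (edgeR), beside 5.96% (RNA), 1.66% (RPF) and 2.21% (TE) of all genes. At an unadjusted p under 0.05 there were 2 in each. All genes tested held 3017 of 14759 (RNA), 3251 of 20192 (RPF) and 2120 of 13395 (TE). DESeq2 called 1, CMTR2, in TE (adjusted p = 0.0361), beside 2.93% of all genes. Their median log2 values were -0.01 for RNA, -0.11 for RPF and 0.0003 for TE. CMTR2, which methylates the ribose of the second transcribed nucleotide, differed most in all 3. It measured 20.4, 19.3 and 17.5 CPM in the siControl Input libraries, against 23.1, 20.5 and 25.4 CPM after knockdown. The footprints gave 12.9, 11.6 and 12.9 CPM across the siControl libraries, while siIGF2BP3 gave 8.05, 10.8 and 10.2 CPM. On the CPM scale the groups were separate in both assays, in opposite directions, beside 25.0% (RNA) and 25.7% (RPF) of all genes. In Input the margin was narrow, 20.4 against 20.5 CPM. With the TMM factors of those 2 libraries (0.994 in siControl and 1.01 in siIGF2BP3) the Input groups overlapped. The TE change was -0.55 ± 0.14 (SE, adjusted p = 0.051, edgeR). Without siIGF2BP3 RPF replicate 1 it was called in RPF (-0.26, adjusted p = 0.023, edgeR) and in TE (-0.47, adjusted p = 0.0149, edgeR), when of the 11 genes 1 rose and 2 fell in RPF, beside 16.5% of all genes, and 1 fell in TE, beside 9.99%. These counts were 1, 2 and 1 again with siControl RPF replicates 2 and 3 also summed. The medians without that library were -0.06 in RPF and -0.02 in TE.

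The genes whose pattern was most like that of METTL3 and of QKI were found by Pearson correlation of log2 CPM, centred within each assay, over the 12 libraries among 11785 protein-coding genes. For METTL3 these were TRA2A (r = 0.948), OGT (r = 0.941) and ARHGAP17 (r = 0.938). For QKI they included API5 (r = 0.968) and CHORDC1 (r = 0.966). The points share libraries and their depth, siIGF2BP3 RPF replicate 1 among them, and the values only describe these 12 libraries.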

How the data were processed

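RPF and Input libraries of HepG2 cells were grouped by their labels. Trimming (Cutadapt), alignment to hg38 (STAR) and counting (featureCounts) were done by the authors, and their versions and the options for shared and stranded reads are not given in the sources used here. Each deposited table holds estimated counts for every gene, unscaled and often fractional. All 10 genes had a fractional value in some RPF library and 7 in some Input library, so reads shared with pseudogenes or neighbours may have been split. How Input libraries were made is not described apart from the RPF protocol.

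Values were rounded (at most 0.0445% of a library total). Names came from GENCODE release 44 (99.2% of identifiers matched), and coordinates from the deposited files. Genes passed filterByExpr, TMM factors were taken within each assay, and edgeR 4.0.16 in R 4.3.3 gave robust quasi-likelihood tests, adjusted over all genes. The study's methods name DESeq2 for TE. DESeq2 1.42.0 and limma 3.58.1 were alternatives, with RLE factors, no filter, 5 CPM and a length offset. Others were TMM over all 12 libraries, each library left out, and siControl RPF replicates 2 and 3 summed. Blocks were the replicate number or, in TE, Input and RPF libraries of a condition joined by replicate number. Subunit ratios were tested by exact permutation in scipy 1.17.1. Scripts were tested on simulated data.

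The genes, lists and tests were chosen with earlier results of these data known. Named genes were the 10, IGF2BP3, genes of the pathway lists that were called or differed most, and the 3 most like METTL3 and QKI, of which 1 is not reported here. Depth was 11219750 to 31510601 counts per library, without molecular identifiers.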

Additional observations from a re-analysis of the deposited data

Results flagged for a closer look

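The METTL3 response to the knockdown differed between the assays, by the edgeR interaction of assay and knockdown. RNA rose by 0.23 on the log2 scale while footprints stood at -0.11, which gives a TE difference of -0.34 (adjusted p = 0.0332, edgeR), negative in all 24 alternatives and called in 9. METTL3 was lowest in RPF in siIGF2BP3 replicate 1, the library that stood apart, and without it the difference was -0.28 (adjusted p = 0.00368, edgeR). The call was lost with siControl RPF replicates 2 and 3 summed (adjusted p = 0.069, edgeR).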

How the results depend on the processing

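Of 69 results recomputed under the alternatives, 761 values kept their direction and their side of the threshold or their place within the replicate spread, 60 were weaker, 30 stronger, 6 moved and 15 changed sign. In RNA, leaving out 1 library gave 444 to 907 calls over all genes and 0 to 1 among the 10. In RPF, DESeq2 called 667 genes and 1 of the 10, the fit with siControl RPF replicates 2 and 3 summed called 14, and leaving out 1 library gave 11 to 3410 calls and 0 to 2 among the 10, the upper ends without siIGF2BP3 RPF replicate 1. With that library left out and the siControl pair summed, chosen after seeing the data, calls numbered 3015 in RPF (3 of the 10) and 1079 in TE. In TE, no filter gave 178 calls and the summed replicates 141. The block joining Input and RPF libraries by number gave 122, and limma on log2 ratios 0 (1633 at an unadjusted p under 0.05). In those 4 fits, and with TMM over all 12 libraries (264 calls), 0 of the 10 were called. In TE, leaving out 1 library gave 126 to 1347 calls and 0 to 1 among the 10. For the RPF/Input ratio on the log2 scale, TMM factors gave 0.36 for METTL3 in siControl, 0.0088 in siIGF2BP3 (a change of sign from -0.02, as with 0.051 without siIGF2BP3 RPF replicate 1) and -1.86 for QKI in siControl. A pseudocount of 0.5 gave 2.52 for METTL1 in siIGF2BP3. The addition of pseudogene counts, chosen after seeing the data, gave 2.77 for METTL1 in siIGF2BP3, and 0.54 and 0.34 for YTHDF2 in siControl and siIGF2BP3. Values near 0 changed sign when 1 library was left out: METTL14 in RNA (-0.052 to 0.015), WTAP in RPF (-0.0060 to 0.050), WDR4 in TE (-0.119 to 0.015) and VIRMA in TE (-0.038 to 0.085). VIRMA in TE was also at -0.00077 with the block joining Input and RPF libraries and -0.0072 with limma. The cause of these shifts was not tested.

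The labels do not state that replicate numbers pair the samples. Deviations of same-numbered libraries correlated between -0.114 and 0.0977 over 12 pairs, which shows no clear pairing but cannot exclude it. With the replicate number as a block, calls numbered 931 (RNA), 379 (RPF) and 227 (TE), and METTL3 was again the called gene of the 10 in RNA (0.23) and TE (-0.34, adjusted p = 0.0446, edgeR). Depth limits METTL1 in Input most, at 49 counts in the lowest library.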
